A study of Caenorhabditis elegans with 12 samples.

Results

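The comparison set the 6 libraries of spo-11 and htp-3 worms against the 6 libraries of N2 and dsb-2 worms, with each strain given the same weight. It covered every gene that reached at least 1 TPM (the authors' length-scaled expression unit, whose sum is the same in every library) in 3 or more of the 12 libraries. That rule kept 13650 of the 20222 genes listed. Polyadenylated RNA had been sequenced from whole Caenorhabditis elegans at day 1 of adulthood, kept at 20 °C on E. coli OP50 and picked at the last larval stage. The 4 strains were N2, the laboratory wild type, AV477 carrying dsb-2(me96), AV157 carrying spo-11(me44) and TY4986 carrying htp-3(y428), with 3 libraries each that the series text calls biological replicates. The series concerns somatic ageing in worms with defective meiosis. Each mutation was present in 1 strain only, so a mutation and the other differences of its strain cannot be told apart. No somatic tissue was separated from the germline.

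In the adult hermaphrodite the germline fills most of the gonad: stem cells divide at its tip, cells then pass through meiotic prophase, and oocytes grow and are fertilised by stored sperm. SPO-11 is the enzyme that cuts DNA to start meiotic recombination, DSB-2 promotes this cutting, and HTP-3 is a structural protein of the meiotic chromosome axis. Germline and early embryo transcripts make up a large part of the polyadenylated RNA of a whole adult, and most genes of the X chromosome are silent in the germline for much of meiosis.

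On the TPM scale, a share of a fixed total, worms of spo-11 and htp-3 had lower oocyte, eggshell, meiotic, DNA replication and proteasome transcripts. Both also had higher transcripts of neuronal, muscle and innate immune genes and of the X chromosome. A gene was counted as shared when it was called in the pooled comparison and in each of the 4 strain contrasts (spo-11 or htp-3 against N2 or dsb-2) in the same direction, at an adjusted p under 0.05 in limma. Of the 13650 genes, 4638 (34.0%) were shared as higher and 1772 (13.0%) as lower. The pooled comparison alone called 7810 higher (57.2%) and 3702 lower (27.1%). A shared gene must also be a pooled call, so the shared counts cannot be the larger. A large change in 1 strain can also move a pooled mean. In 4918 genes (36.0%) every spo-11 and htp-3 library lay above every N2 and dsb-2 library, and in 1922 (14.1%) every one lay below. With a fold change of at least 2 also required in each contrast, 2116 shared higher genes and 145 shared lower genes were left.

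These calls rest on the spread between libraries of a strain, with 8 residual degrees of freedom. With the 4 strain means taken as the samples, limma called 1520 genes higher and 970 lower, among them 1508 of the shared higher and 965 of the shared lower genes. TPM is a share of a fixed total, and the median gene of all those tested stood 0.65 higher in spo-11 and htp-3 on the log2(TPM + 1) scale, or 0.21 under median-of-ratios scaling. Under that scaling the shared genes were 2994 higher (21.9%) and 4104 lower (30.1%), and the pooled calls 6508 higher (47.7%) and 5547 lower (40.6%), so the share of higher genes among the shared calls went from 72.4% to 42.2% and among the pooled calls from 67.8% to 54.0%. Values below are on the log2(TPM + 1) scale and are to be read against the median of 0.65. Counts of a gene list are to be read against the 34.0% shared as higher and 13.0% as lower over all genes. Those under median-of-ratios scaling are to be read against 21.9% higher and 30.1% lower, and medians under that scaling against 0.21. A list member with no N2 or dsb-2 library at 1 TPM passed the filter through spo-11 and htp-3 alone and could hardly be called lower; such members are counted as high-side only, and their list's count of rises and its median are descriptions. Counts of list members called between spo-11 and htp-3 are to be read against the 38.6% higher and 8.10% lower in spo-11 over all genes. A member kept through spo-11 alone could hardly be called lower in spo-11, so such counts are descriptions too. Genes named outside the rule given in the processing notes were chosen after their values were seen. In the shared genes whose library values are given, no spo-11 or htp-3 library lay within the range of the N2 and dsb-2 libraries, except in dod-3 and msp-56.

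Mapped reads, rebuilt from the deposited values, ranged from 32422219 to 42527086 per library, of which the listed genes held 78.8% (dsb-2 replicate 1) to 97.9%. Of the variance, 79.6% lay on the first principal component and 10.5% on the second. On the first, N2 and dsb-2 libraries lay between -82.1 and -58.3, htp-3 between -8.01 and 27.7 and spo-11 between 109 and 138. The htp-3 library nearest to N2 and dsb-2 was replicate 2, and without it 4772 genes were shared as higher and 2178 as lower. Between dsb-2 and N2 36 genes (0.264%) differed, 26 higher in dsb-2 (0.190%) and 10 lower (0.0733%). Between spo-11 and htp-3 6370 (46.7%) differed, 5264 higher in spo-11 (38.6%) and 1106 lower (8.10%). The total between dsb-2 and N2 was 23 without N2 replicate 2 or dsb-2 replicate 2, and that between spo-11 and htp-3 was 3845 without spo-11 replicate 1 and 3930 without spo-11 replicate 3. Of the genes kept, 2656 had no N2 or dsb-2 library at 1 TPM, and 1298 of them were kept through spo-11 alone. Just inside the filter was F54B11.8, with a third-highest value of 1.00 TPM, and just outside it C24A8.5, with 0.999 TPM.

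The mutated genes were examined first. The htp-3 transcript was at 6.67, 12.3 and 9.52 TPM in htp-3, at 25.3, 33.7 and 34.8 TPM in spo-11 and at 67.9 to 114 TPM (median 83.7) in N2 and dsb-2. It was therefore itself a shared lower gene, with a pooled difference of -2.22 ± 0.15 (SE; adjusted p = 1.11e-08), and was lower in htp-3 than in spo-11, which stood above it by 1.64 (adjusted p = 8.82e-06). The spo-11 transcript was at 37.9, 33.7 and 37.0 TPM in spo-11, at 27.1, 40.8 and 53.7 TPM in htp-3 and at 24.5 to 47.1 TPM (median 33.7) in N2 and dsb-2, and these ranges overlapped. Its pooled difference was 0.11 ± 0.18 (SE; adjusted p = 0.587), or -0.51 (adjusted p = 0.00331) under median-of-ratios scaling, so its direction depended on the scaling. The dsb-2 transcript was lowest in its own strain, at 17.4, 20.1 and 17.8 TPM in dsb-2 against 57.6, 62.5 and 55.4 TPM in N2, and it was at 21.2 to 43.7 TPM (median 38.5) over the spo-11 and htp-3 libraries. Its pooled difference was 0.11 ± 0.15 (SE; adjusted p = 0.501), and -0.50 under median-of-ratios scaling.

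Contrasts with no library in common allow the strains to be set against each other without shared controls. Of 7584 genes (55.6%) higher in spo-11 than in N2, 5082 (67.0%) were also higher in htp-3 than in dsb-2, and these made up 89.6% of the 5673 genes (41.6%) higher in htp-3 than in dsb-2. Of 3010 genes (22.1%) lower in spo-11 than in N2, 2041 (67.8%) were lower in htp-3 than in dsb-2, or 64.9% of the 3146 (23.0%) lower there. A gene higher in spo-11 was lower in htp-3 in 58 cases, and the reverse held in 97. With the control strains exchanged, 7635 genes (55.9%) were higher and 3243 (23.8%) lower in spo-11 than in dsb-2, and 5397 (39.5%) higher and 2684 (19.7%) lower in htp-3 than in N2. Of these, 5081 were higher in both (66.5% of the spo-11 and 94.1% of the htp-3 genes) and 2166 lower in both (66.8% and 80.7%), with 39 opposite calls each way.

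**Figure D1:**
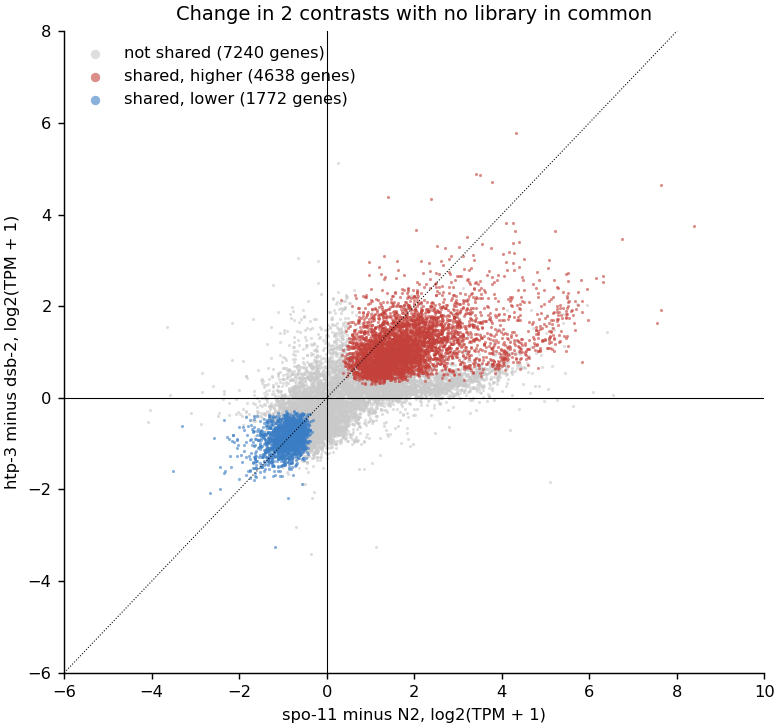
Each point is 1 of 13650 genes, with its difference between spo-11 and N2 on the x axis and between htp-3 and dsb-2 on the y axis, both in log2(TPM + 1); red and blue mark the 4638 shared higher and 1772 shared lower genes and the dotted line marks equal change. The shared lower genes lie about the dotted line, and many shared higher genes lie below it, where the rise in spo-11 is the larger.

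The shared rises were larger in spo-11 and the shared falls were of like size in the 2 strains on the TPM scale. The median shared higher gene rose by 1.70 in spo-11 and by 1.08 in htp-3, both against the mean of N2 and dsb-2. The median shared lower gene stood at -0.92 in spo-11 and at -0.82 in htp-3. Tested directly, 2570 of the 4638 shared higher genes (55.4%) rose farther in spo-11 and 105 (2.26%) rose farther in htp-3. Of the 1772 shared lower genes, 210 (11.9%) fell farther in spo-11 and 6 fell farther in htp-3, and in 1556 (87.8%) the strains were not told apart. This contrast between rises and falls was absent under median-of-ratios scaling, where 38.0% of the shared higher and 39.4% of the shared lower genes moved farther in spo-11.

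Shared higher genes had lower levels in N2 and dsb-2 than shared lower genes, which the filter in part fixes. It kept 2656 genes with no N2 or dsb-2 library at 1 TPM and 17 with no spo-11 or htp-3 library there, so that genes scarce in N2 and dsb-2 were tested mainly where the other side was higher. The median shared higher gene had a mean of 2.08 TPM over N2 and dsb-2 and 9.94 TPM over spo-11 and htp-3. The median shared lower gene had 83.1 TPM over N2 and dsb-2 and 44.4 TPM over spo-11 and htp-3. In all, the shared higher genes took 8.56% to 11.3% of the TPM total in the N2 and dsb-2 libraries, 21.2% to 29.6% in htp-3 and 32.5% to 33.8% in spo-11. The shared lower genes took 31.6% to 36.3% in N2 and dsb-2, 17.3% to 23.9% in htp-3 and 16.7% to 18.1% in spo-11. The lowest share of higher genes and the highest share of lower genes among the spo-11 and htp-3 libraries were both those of htp-3 replicate 2. Genes at 1 TPM or more numbered 9755 to 10452 per N2 or dsb-2 library, 11455 to 12138 in htp-3 and 13551 to 14184 in spo-11, and these counts did not overlap.

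**Figure D2:**
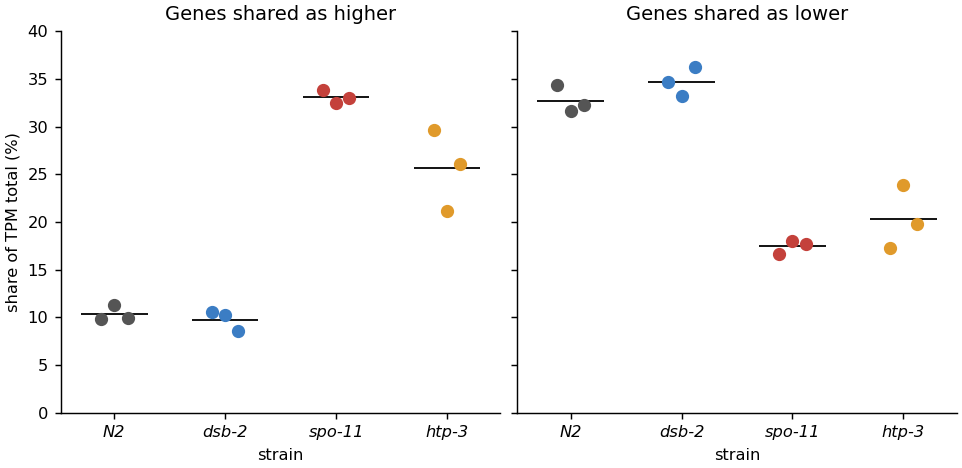
Share of each library's TPM total (y axis, percent) held by the 4638 shared higher genes (left) and the 1772 shared lower genes (right), by strain on the x axis; points are libraries and lines are strain means. In both panels every spo-11 and htp-3 library is separated from every N2 and dsb-2 library, and the genes were chosen by calls on the same libraries.

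Most oocyte and eggshell transcripts fell. Of 30 genes of the list, 27 were shared as lower and 0 as higher, against 13.0% and 34.0% of all genes, with a median of -1.29 (-1.34 in spo-11, -1.29 in htp-3; -1.92 under median-of-ratios scaling, with 0 shared higher and 28 lower). In bulk RNA of whole worms, a change in the number of cells of a type and a change in RNA per cell cannot be told apart. This holds for the falls and for the rises given below. The list summed to between 14024 and 15605 in N2, between 15848 and 22268 in dsb-2, between 6365 and 10782 in htp-3 and between 8479 and 9176 in spo-11 (TPM), and the htp-3 and spo-11 ranges overlapped with each other but not with those of N2 or dsb-2. The transcript of puf-5 (chromosome II, 8575541 to 8577732, WBcel235), a Pumilio-family RNA-binding protein of growing oocytes, was at 199, 246 and 206 TPM in spo-11, at 191, 424 and 259.7 TPM in htp-3 and at 689.5 to 1135 TPM (median 783) in N2 and dsb-2. The pooled difference was -1.76 ± 0.17 (SE; adjusted p = 1.62e-07), and spo-11 and htp-3 were close to each other. The gene egg-5, which acts in the oocyte-to-embryo transition, was at 51.8, 64.1 and 59.2 TPM in spo-11, at 72.0, 123 and 75.8 TPM in htp-3 and at 179.6 to 328 TPM (median 222) in N2 and dsb-2. The difference was -1.68 ± 0.15. The eggshell proteoglycan gene cpg-2 was at 714, 733 and 717 TPM in spo-11, at 618, 1228 and 818 TPM in htp-3 and at 1683 to 2775 TPM (median 2144) in N2 and dsb-2. The difference was -1.48 ± 0.14. In all 3 genes htp-3 replicate 2 held the highest value of the spo-11 and htp-3 libraries. The exceptions in the list were mbk-2 and perm-2, which were not called, and perm-4, a gene of the vitelline layer, which was called higher in the pooled comparison (0.43 ± 0.09) with contrasts of 1.02 and 0.70 for spo-11 and 0.16 and -0.16 for htp-3, against N2 and dsb-2 in turn, and was at -0.20 under median-of-ratios scaling.

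The largest shared falls outside that list also included genes of the egg. The gene perm-1, needed for the eggshell permeability barrier, was at 34.1, 41.5 and 41.5 TPM in spo-11, at 35.1, 81.9 and 50.9 TPM in htp-3 and at 126 to 178 TPM (median 139) in N2 and dsb-2 (-1.66 ± 0.16). The gene kca-1, a kinesin-1 partner that positions the meiotic spindle in the oocyte, was at 76.2, 85.0 and 83.5 TPM in spo-11, at 74.4, 118 and 87.9 TPM in htp-3 and at 217 to 284 TPM (median 257) in N2 and dsb-2 (-1.52 ± 0.12). The gene gfat-2, a glutamine-fructose-6-phosphate aminotransferase, was at 103, 100.4 and 99.2 TPM in spo-11, at 141, 295 and 197 TPM in htp-3 and at 477 to 715 TPM (median 565) in N2 and dsb-2, and was lower in spo-11 than in htp-3, with a difference of -0.99 (adjusted p = 0.000777). In perm-1, kca-1 and gfat-2 the highest library of the lower side was htp-3 replicate 2. The genes T24D1.3 and C01G8.1, which the files leave unnamed, differed by -1.68 ± 0.18 and -1.68 ± 0.16. Cytochrome P450 genes cyp-31A2 and cyp-31A3, which make eggshell lipids, were among the 5 shared lower genes of the xenobiotic list, at -1.15 ± 0.15 and -1.41 ± 0.16. These near-identical genes may share reads, and they were picked after their values were seen.

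Meiotic chromosome and recombination genes were lower or not called. Of 52 listed, 29 were shared as lower and 0 as higher, with a median of -0.83 (-0.91 in spo-11, -0.80 in htp-3; -1.42 under median-of-ratios scaling, with 0 shared higher and 46 lower). The gene listed as D1081.9, now named zhp-2, a RING-finger protein of the synaptonemal complex, was at 14.8, 19.2 and 17.9 TPM in spo-11, at 13.1, 29.1 and 19.0 TPM in htp-3 and at 46.4 to 56.7 TPM (median 51.7) in N2 and dsb-2 with a difference of -1.45 ± 0.16 (SE; adjusted p = 6.71e-07). The crossover factor cosa-1 differed by -1.37 ± 0.15, the recombinase gene rad-51 by -0.71 ± 0.13 and the axis gene him-3 by -0.71 ± 0.12, the 3 being chosen after their values were seen. The pooled call of the strand-break factor him-5 rested on spo-11. It was at 1.14, 0.665 and 1.08 TPM in spo-11, at 18.9, 23.5 and 25.4 TPM in htp-3 and at 23.3 to 33.2 TPM (median 30.3) in N2 and dsb-2. The htp-3 libraries overlapped the N2 and dsb-2 range. The gene was not shared, and in htp-3 alone, against the mean of N2 and dsb-2, it was not called in limma (-0.36, adjusted p = 0.074). Its difference between spo-11 and htp-3 was -3.59 (adjusted p = 8.94e-09). The axis and cohesion gene coh-3 was among the 5 shared lower genes most alike in the 2 strains, at -0.84 and -1.17 for spo-11 and -0.84 and -1.17 for htp-3, against N2 and dsb-2 in turn.

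Germline stem cell, P granule and small RNA genes also included many shared falls and no shared rise. Of 26 stem cell and P granule genes 15 were shared as lower and 0 as higher, with a median of -0.93 (-0.92 in spo-11, -0.98 in htp-3; -1.54 under median-of-ratios scaling, with 0 shared higher and 22 lower). The P granule gene car-1 was at 339, 459.5 and 431 TPM in spo-11, at 469.6, 932 and 542 TPM in htp-3 and at 1144 to 1963 TPM (median 1536) in N2 and dsb-2 (-1.58 ± 0.14), and deps-1 differed by -1.34 ± 0.14. The niche receptor gene glp-1 was not called, at -0.17 ± 0.29 (SE; adjusted p = 0.573). Of 18 germline Argonaute and small RNA genes (2 high-side only), 7 were shared as lower, with a median of -0.66 (-0.65 in spo-11, -0.69 in htp-3; -1.28 under median-of-ratios scaling, with 0 shared higher and 14 lower). The nuclear Argonaute gene hrde-1 was at 66.8, 92.9 and 96.6 TPM in spo-11, at 96.7, 197 and 117 TPM in htp-3 and at 229 to 457 TPM (median 274) in N2 and dsb-2 (-1.48 ± 0.17). It was lowest in spo-11, with htp-3 replicate 2 nearest to N2 and dsb-2. Outside the list, the Piwi-family gene prg-2, among the 12 largest shared falls, was at 19.5, 21.9 and 26.9 TPM in spo-11, at 28.5, 71.4 and 42.1 TPM in htp-3 and at 98.7 to 151 TPM (median 135) in N2 and dsb-2 (-1.98 ± 0.19).

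Replication and cell division genes fell in most cases. Of them 31 of 38 were shared as lower and 0 as higher, with a median of -0.99 (-0.98 in spo-11, -0.97 in htp-3; -1.62 under median-of-ratios scaling, with 0 shared higher and 35 lower). The cyclin-dependent kinase gene cdk-1 was at 170.5, 137 and 151 TPM in spo-11, at 171, 219.9 and 219 TPM in htp-3 and at 338 to 505 TPM (median 383) in N2 and dsb-2 (-1.15 ± 0.11). The anaphase-promoting complex gene emb-27 differed by -1.40 ± 0.13 and the B-type cyclin gene cyb-2.2 by -1.29 ± 0.13. All 6 subunits of the MCM replicative helicase (mcm-2 to mcm-7) were shared as lower. Of 28 DNA damage response and apoptosis genes, 17 were shared as lower and 0 as higher, with a median of -0.91 (-0.91 in spo-11, -0.81 in htp-3; -1.50 under median-of-ratios scaling, with 0 shared higher and 25 lower). The anti-apoptotic gene ced-9 was at 51.8, 50.8 and 47.6 TPM in spo-11, at 57.8, 81.4 and 67.0 TPM in htp-3 and at 114 to 146 TPM (median 133) in N2 and dsb-2 (-1.15 ± 0.11). The mismatch repair gene msh-2 differed by -1.05 ± 0.13 and the checkpoint clamp gene mrt-2 by -1.05 ± 0.13.

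Housekeeping machinery fell in part with the germline genes. Of 33 proteasome subunit genes, 27 were shared as lower and 0 as higher, with a median of -0.83 (-0.92 in spo-11, -0.73 in htp-3; -1.45 under median-of-ratios scaling, with 0 shared higher and 33 lower). The core subunit gene pas-1 was at 142, 158 and 142 TPM in spo-11, at 178, 235.3 and 198 TPM in htp-3 and at 303 to 382 TPM (median 344) in N2 and dsb-2 (-0.99 ± 0.09), with no overlap of sides. The lid subunit genes rpn-7 and rpn-9 differed by -0.97 ± 0.10 and -0.93 ± 0.10. None of the 27 reached a fold change of 2 in all 4 contrasts. Of 78 ribosomal protein genes (1 high-side only), 23 were shared as lower and 2 as higher, with a median of -0.44 (-0.54 in spo-11, -0.33 in htp-3; -1.07 under median-of-ratios scaling, with 2 shared higher and 62 lower).

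The 2 ribosomal exceptions, rpl-11.2 and rpl-25.1, both lie on the X chromosome and have a partner gene on another chromosome that fell. The gene rpl-11.2 was at 1661, 1594 and 1352 TPM in spo-11, at 1591, 1076 and 1332 TPM in htp-3 and at 386 to 549 TPM (median 436) in N2 and dsb-2. The difference was 1.67 ± 0.12 (SE; adjusted p = 1.72e-08). Its partner rpl-11.1 on chromosome V was at 1318, 1350.4 and 1408 TPM in spo-11, at 1889.5, 2434 and 2523 TPM in htp-3 and at 3462 to 4481 TPM (median 4088) in N2 and dsb-2. The difference was -1.20 ± 0.09 (SE; adjusted p = 2.83e-08). The gene rpl-25.1 rose by 1.59 ± 0.12, and rpl-25.2 on chromosome I differed by -0.89 ± 0.12. The same arrangement was seen, on inspection of the respiratory list after its values were known, for ATP synthase subunit b, with asb-2 on X at 1.17 ± 0.11 and asb-1 on III at -0.61 ± 0.13. It was seen too for a complex III core subunit, with ucr-2.1 and ucr-2.2 on X at 1.13 ± 0.11 and 0.78 ± 0.11 and ucr-2.3 on III at -0.89 ± 0.15. Partner genes alike in sequence may share reads, so each value is uncertain as that of a single gene. Under median-of-ratios scaling rpl-11.2 and rpl-25.1 remained shared as higher, and asb-2, ucr-2.1 and ucr-2.2 did not, with pooled values of 0.54, 0.51 and 0.16. Of 34 respiratory chain genes in all, 8 were shared as higher and 4 as lower, with a median of -0.03 (-0.06 in spo-11, 0.05 in htp-3; -0.63 under median-of-ratios scaling, with 2 shared higher and 9 lower).

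Histone genes took up 4 places among the 12 largest shared falls. The gene his-67 was at 3.82, 2.90 and 2.62 TPM in spo-11, at 4.31, 5.97 and 7.73 TPM in htp-3 and at 20.3 to 37.3 TPM (median 25.8) in N2 and dsb-2 (-2.37 ± 0.18), and his-68 was at 13.2, 11.95 and 13.3 TPM in spo-11, at 16.5, 29.5 and 23.1 TPM in htp-3 and at 64.3 to 102 TPM (median 84.0) in N2 and dsb-2 (-2.21 ± 0.16). The genes his-63 and his-58 differed by -1.77 ± 0.24 and -1.58 ± 0.24. The family as a whole did not move one way: of 60 tested (1 high-side only), 10 were shared as lower and 5 as higher, and the median was 0.16 (0.65 in spo-11, -0.37 in htp-3; -0.28 under median-of-ratios scaling, with 4 shared higher and 19 lower), a change of sign with the scaling. The 5 higher ones included his-71, an H3.3 variant gene, at 1.78 ± 0.14, and the linker histone gene his-24, at 2.77 ± 0.23 and picked after its values were seen. Replicating histone genes are near-identical and their mRNAs largely lack poly(A) tails, so their values in polyadenylated RNA are uncertain as single genes. Also among the 12 falls, the F-box gene fbxb-7 had a listed value of 0 in each of the 3 spo-11 libraries and stood at 3.002, 3.05 and 4.25 TPM in htp-3 and at 7.39 to 15.1 TPM (median 11.7) in N2 and dsb-2.

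**Figure D3:**
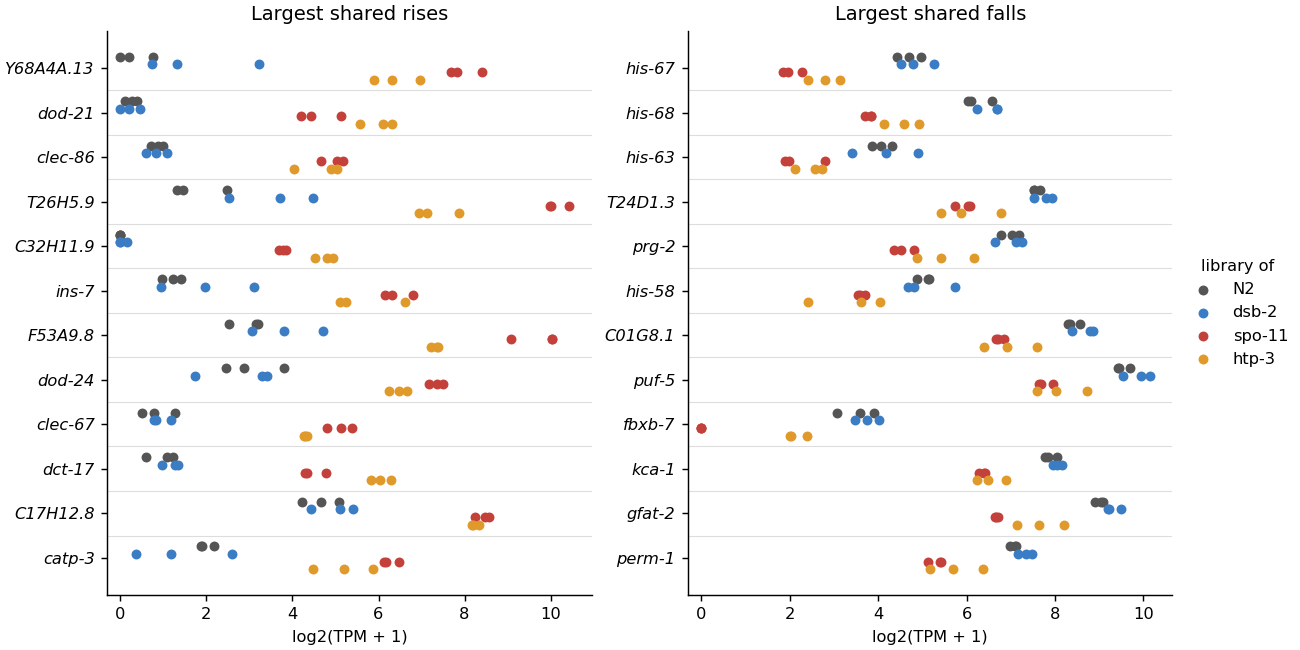
Values of the 12 largest shared rises (left) and the 12 largest shared falls (right), ranked by the weakest of their 4 strain contrasts, with log2(TPM + 1) on the x axis and 1 point per library. No spo-11 or htp-3 point overlaps an N2 or dsb-2 point of the same gene, which the choice of these genes required.

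Among the 12 largest shared rises were defence-related and secreted products. The genes dod-21 and dod-24, first described as targets downstream of the FOXO factor DAF-16, are neighbours of C32H11.9 on chromosome IV, between 12935011 and 12941405 (WBcel235). The gene dod-21 was at 34.2, 20.5 and 17.5 TPM in spo-11, at 46.6, 78.0 and 67.4 TPM in htp-3 and at 0 to 0.373 TPM (median 0.176) in N2 and dsb-2. The difference was 5.05 ± 0.18 (SE; adjusted p = 2.16e-10). The gene C32H11.9, now named cld-1, was at 12.7, 13.5 and 11.9 TPM in spo-11, at 21.8, 29.9 and 27.1 TPM in htp-3 and was listed at 0 in 5 of the 6 N2 and dsb-2 libraries. Both were higher in htp-3 than in spo-11, by 1.40 (adjusted p = 0.000369) and 0.98 (adjusted p = 0.000276). The gene dod-24 was at 181, 144 and 163 TPM in spo-11, at 74.3, 87.4 and 100.5 TPM in htp-3 and at 2.31 to 12.9 TPM (median 7.60) in N2 and dsb-2, with a difference between spo-11 and htp-3 of 0.89 (adjusted p = 0.0695); the strains were not told apart there.

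The insulin-like peptide gene ins-7, an agonist of the DAF-2 receptor, was at 111, 69.8 and 78.5 TPM in spo-11, at 97.5, 33.2 and 37.2 TPM in htp-3 and at 0.914 to 7.63 TPM (median 1.51) in N2 and dsb-2. The difference was 4.43 ± 0.32 (SE; adjusted p = 2.2e-08). The C-type lectin genes clec-86 and clec-67 rose by 3.95 ± 0.18 and 3.81 ± 0.16. The unnamed gene C17H12.8 was at 376, 300.4 and 358 TPM in spo-11, at 322, 289 and 294 TPM in htp-3 and at 17.7 to 41.6 TPM (median 28.8) in N2 and dsb-2, so that both strains stood at like levels. The gene catp-3, a cation-transporting ATPase, was at 70.7, 68.7 and 87.7 TPM in spo-11, at 21.4, 35.5 and 57.8 TPM in htp-3 and at 0.277 to 4.999 TPM (median 2.69) in N2 and dsb-2 (4.04 ± 0.31). The gene dct-17, another reported DAF-16 target, was at 19.4, 26.6 and 18.6 TPM in spo-11, at 77.1, 64.1 and 55.8 TPM in htp-3 and at 0.507 to 1.52 TPM (median 1.24) in N2 and dsb-2, and stood higher in htp-3 than in spo-11, by 1.57 (adjusted p = 3.61e-05). Of the genes the files leave unnamed, Y68A4A.13 was at 339, 224 and 204 TPM in spo-11, at 123, 79.2 and 58.8 TPM in htp-3 and at 0 to 8.33 TPM (median 0.678) in N2 and dsb-2. T26H5.9 was at 1384, 1025 and 1011 TPM in spo-11, at 234, 139 and 122 TPM in htp-3 and at 1.50 to 21.2 TPM (median 4.64) in N2 and dsb-2, and F53A9.8 at 1039, 544 and 1039 TPM in spo-11, at 164, 148 and 165 TPM in htp-3 and at 4.72 to 25.2 TPM (median 8.05) in N2 and dsb-2. All 3 were highest in spo-11 and intermediate in htp-3, and on the other side dsb-2 replicate 2 was the highest library.

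Many immune and pathogen response genes were shared rises. Of 62 innate immune effector genes (11 high-side only), 40 were shared as higher and 0 as lower, with a median of 1.69 (1.999 in spo-11, 1.13 in htp-3; 1.25 under median-of-ratios scaling, with 26 shared higher and 1 lower). The gene dod-19 was at 279, 420.2 and 287 TPM in spo-11, at 413, 319 and 283 TPM in htp-3 and at 32.8 to 62.7 TPM (median 42.6) in N2 and dsb-2. The difference was 2.86 ± 0.14 (SE; adjusted p = 1.4e-09). Here spo-11 and htp-3 were not told apart, with a difference of -0.05 (adjusted p = 0.864). The lysozyme gene lys-7, a DAF-16 target, was at 1053, 1422 and 739 TPM in spo-11, at 172, 115 and 113 TPM in htp-3 and at 12.7 to 37.6 TPM (median 25.9) in N2 and dsb-2, and rose farther in spo-11 than in htp-3, by 2.97 (adjusted p = 4.28e-06). Epidermal antimicrobial peptide genes nlp-27, nlp-28, nlp-29, nlp-30, nlp-31 and nlp-34, which lie side by side on chromosome V (3978836 to 3989770), were all shared as higher, with pooled differences of 1.58 to 2.54. Of 26 intracellular pathogen response genes (10 high-side only), 20 were shared as higher and 0 as lower, with a median of 1.53 (1.74 in spo-11, 1.34 in htp-3; 1.17 under median-of-ratios scaling, with 18 shared higher and 1 lower). The gene pals-32 was at 20.6, 13.7 and 17.2 TPM in spo-11, at 2.47, 1.99 and 3.45 TPM in htp-3 and at 0.0276 to 0.586 TPM (median 0.131) in N2 and dsb-2 (2.77 ± 0.15), and pals-39 was at 11.3, 9.03 and 8.41 TPM in spo-11, at 7.67, 3.72 and 4.07 TPM in htp-3 and at 0.0487 to 0.614 TPM (median 0.117) in N2 and dsb-2 (2.74 ± 0.16). Of 100 C-type lectin genes (34 high-side only), 54 were shared as higher and 3 as lower (clec-87, clec-88 and clec-91), with a median of 1.23 (1.58 in spo-11, 0.96 in htp-3; 0.77 under median-of-ratios scaling, with 34 shared higher and 3 lower). The gene clec-60, known to be induced in the infected gut, was at 33.7, 27.5 and 30.7 TPM in spo-11, at 3.27, 0.895 and 2.06 TPM in htp-3 and at 0 to 0.0704 TPM (median 0.0261) in N2 and dsb-2.

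Detoxification, lipid and nuclear receptor genes were also examined. Of 138 xenobiotic metabolism genes (30 high-side only), 77 were shared as higher and 5 as lower, with a median of 1.00 (1.28 in spo-11, 0.83 in htp-3; 0.64 under median-of-ratios scaling, with 54 shared higher and 10 lower). The glutathione transferase gene gst-24 was at 73.7, 71.6 and 85.4 TPM in spo-11, at 19.0, 22.2 and 26.3 TPM in htp-3 and at 1.30 to 3.71 TPM (median 2.01) in N2 and dsb-2. The difference was 3.78 ± 0.16 (SE; adjusted p = 4.91e-10). The genes gst-6 and cyp-32B1 rose by 2.71 ± 0.16 and 2.19 ± 0.11. Of 51 lipid metabolism genes (6 high-side only), 20 were shared as higher and 2 as lower, with a median of 0.83 (0.89 in spo-11, 0.68 in htp-3; 0.27 under median-of-ratios scaling, with 10 shared higher and 5 lower). The share of rises was 39.2%, near the 34.0% of all genes. The carnitine palmitoyltransferase gene cpt-4 was at 42.7, 31.6 and 38.2 TPM in spo-11, at 10.2, 11.99 and 17.2 TPM in htp-3 and at 0.543 to 2.16 TPM (median 0.905) in N2 and dsb-2 (3.52 ± 0.17), the lysosomal lipase gene lipl-1 was at 22.4, 16.0 and 20.5 TPM in spo-11, at 2.04, 4.87 and 5.99 TPM in htp-3 and at 0.0428 to 0.210 TPM (median 0.0917) in N2 and dsb-2 (3.19 ± 0.18), and the fatty acid-binding protein gene lbp-5 rose by 2.13 ± 0.14. Of 162 nuclear hormone receptor genes (27 high-side only), 111 were shared as higher and 2 as lower, with a median of 0.95 (1.08 in spo-11, 0.84 in htp-3; 0.53 under median-of-ratios scaling, with 68 shared higher and 11 lower). The receptor gene nhr-97 was at 109.8, 104 and 109 TPM in spo-11, at 67.9, 48.8 and 61.6 TPM in htp-3 and at 20.2 to 25.2 TPM (median 22.3) in N2 and dsb-2 (1.79 ± 0.12).

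Of 16 DAF-16 target genes (1 high-side only), 7 were shared as higher and 1 as lower, and the median was 1.10 (1.60 in spo-11, 0.53 in htp-3; 0.68 under median-of-ratios scaling, with 3 shared higher and 1 lower). The rises were 43.8% of the list, against 34.0% of all genes. Genes called DAF-16 targets, here and above, were not split by whether DAF-16 raises or lowers them. The activity of DAF-16 was not tested. Of its genes, dod-3 was at 218, 225 and 255 TPM in spo-11, at 11.7, 26.1 and 29.4 TPM in htp-3 and at 1.64 to 13.5 TPM (median 6.49) in N2 and dsb-2, with htp-3 replicate 1 inside the range of N2 and dsb-2 and a difference between spo-11 and htp-3 of 3.41 (adjusted p = 6.42e-06). The ferritin gene ftn-1 was at 44.6, 19.5 and 27.1 TPM in spo-11, at 2.44, 1.59 and 1.79 TPM in htp-3 and at 0.602 to 1.47 TPM (median 1.18) in N2 and dsb-2. It was not shared, the htp-3 contrasts being 0.47 and 0.45. Of 25 insulin-like peptide genes (14 high-side only), 16 were shared as higher and 0 as lower, with a median of 1.52 (2.09 in spo-11, 0.76 in htp-3; 1.15 under median-of-ratios scaling, with 14 shared higher and 0 lower). In 24 of the 25, spo-11 was called above htp-3, against 38.6% of all genes. The filter favours that direction in members kept through spo-11 alone, so the count is a description. The gene ins-37 was at 20.7, 17.5 and 32.0 TPM in spo-11, at 1.08, 0.756 and 1.19 TPM in htp-3 and at 0 to 0.360 TPM (median 0.215) in N2 and dsb-2. The gene ins-8 was at 21.1, 11.4 and 17.2 TPM in spo-11 and at 0.739, 0 and 0.110 TPM in htp-3, was listed at 0 in 5 of 6 N2 and dsb-2 libraries, and was not shared.

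Most neuronal and neuropeptide genes rose in both strains. Of 81 neuropeptide genes (9 high-side only), 74 were shared as higher and 0 as lower, with a median of 1.93 (2.29 in spo-11, 1.54 in htp-3; 1.44 under median-of-ratios scaling, with 61 shared higher and 0 lower). The peptide gene flp-8 was at 43.9, 26.0 and 34.4 TPM in spo-11, at 6.67, 3.46 and 5.58 TPM in htp-3 and at 1.02 to 1.63 TPM (median 1.16) in N2 and dsb-2 (2.71 ± 0.17), flp-9 rose by 2.68 ± 0.18 and nlp-11 by 2.25 ± 0.15. Of 23 pan-neuronal and transmitter genes (4 high-side only), 19 were shared as higher and 0 as lower, with a median of 1.56 (1.65 in spo-11, 1.34 in htp-3; 1.07 under median-of-ratios scaling, with 15 shared higher and 0 lower). The peptide-processing chaperone gene sbt-1 was at 178, 123 and 144 TPM in spo-11, at 74.7, 47.2 and 72.6 TPM in htp-3 and at 12.1 to 17.2 TPM (median 15.8) in N2 and dsb-2, a difference of 2.59 ± 0.15 (SE; adjusted p = 3.49e-09), and the carboxypeptidase gene egl-21 rose by 2.08 ± 0.14. The list summed to between 318 and 396 in N2, between 402 and 415 in dsb-2, between 571 and 659 in htp-3 and between 928 and 1193 in spo-11 (TPM).

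Most muscle genes rose as well. Of 25 muscle genes (3 high-side only), 19 were shared as higher and 0 as lower, with a median of 1.26 (1.73 in spo-11, 0.97 in htp-3; 0.84 under median-of-ratios scaling, with 8 shared higher and 2 lower). The body-wall myosin gene unc-54 was at 332, 389 and 646 TPM in spo-11, at 293, 257 and 215 TPM in htp-3 and at 42.9 to 128 TPM (median 61.3) in N2 and dsb-2. The difference was 2.25 ± 0.18 (SE; adjusted p = 4.33e-08). In N2 alone it was at 42.9 to 53.5 TPM, below all 3 dsb-2 libraries. The pharyngeal myosin genes myo-1 and myo-2 rose by 1.74 ± 0.14 and 1.81 ± 0.14. Of 20 intestine genes, 9 were shared as higher and 0 as lower, with a median of 1.01 (0.55 in spo-11, 1.15 in htp-3; 0.40 under median-of-ratios scaling, with 5 shared higher and 0 lower). This was 45.0% of the list, against 34.0% of all genes. Here 7 members were higher in htp-3 than in spo-11 and 3 the other way. The gut GATA factor genes elt-2 and elt-7 rose by 1.02 ± 0.17 and 1.28 ± 0.14, the first at 0.99 and 1.18 for spo-11 and 0.85 and 1.04 for htp-3, against N2 and dsb-2 in turn. The intermediate filament gene ifb-2 was at 202, 257 and 288 TPM in spo-11, at 149, 136 and 121 TPM in htp-3 and at 25.5 to 44.7 TPM (median 39.6) in N2 and dsb-2 (2.24 ± 0.14). Of 19 gut protease genes (1 high-side only), 8 were shared as higher and 0 as lower, with a median of 1.25 (1.24 in spo-11, 1.22 in htp-3; 0.62 under median-of-ratios scaling, with 4 shared higher and 0 lower), and the aspartic protease gene asp-17 was at 30.6, 47.1 and 20.3 TPM in spo-11, at 17.1, 10.03 and 11.99 TPM in htp-3 and at 0.398 to 1.25 TPM (median 0.828) in N2 and dsb-2 (3.53 ± 0.21).

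Most pooled calls of cuticle collagens were not shared. Of 127 collagen genes (22 high-side only), 121 were called higher in the pooled comparison, and 44 were shared as higher (0 as lower), with a median of 1.50 (2.17 in spo-11, 0.58 in htp-3; 1.06 under median-of-ratios scaling, with 23 shared higher and 0 lower). The shared rises made up 34.6% of the list, close to the 34.0% of all genes. Over all 127 collagen genes, spo-11 was called above htp-3 in 85 and htp-3 above spo-11 in 19. The adult collagen gene col-19 was at 1338, 1648 and 1513 TPM in spo-11, at 3884, 2352 and 3610.0 TPM in htp-3 and at 534 to 832 TPM (median 671) in N2 and dsb-2, so that it stood highest in htp-3. The gene col-42 was at 1198, 1428 and 1381 TPM in spo-11, at 1308, 801 and 1352 TPM in htp-3 and at 202 to 332 TPM (median 303) in N2 and dsb-2 (2.12 ± 0.15), with the 2 strains overlapping, and col-48 was at 12.7, 15.3 and 17.9 TPM in spo-11, at 4.99, 3.18 and 5.52 TPM in htp-3 and at 1.11 to 2.07 TPM (median 1.34) in N2 and dsb-2, highest in spo-11. As a sum, the list held between 24646 and 27758 in N2, between 20713 and 27889.7 in dsb-2, between 61022 and 103413 in htp-3 and between 44479.8 and 52213 in spo-11 (TPM), the highest sums being those of htp-3. Of 13 hypodermis genes (1 high-side only), 6 were shared as higher and 1, lin-26, as lower, with a median of 1.17 (1.47 in spo-11, 0.71 in htp-3; 0.72 under median-of-ratios scaling, with 5 shared higher and 3 lower). The procollagen protease gene dpy-31 rose by 1.60 ± 0.18. Of 40 Hedgehog-related and Patched-related genes (10 high-side only), 20 were shared as higher and 1 as lower, or 13 and 1 under median-of-ratios scaling (the lower gene being ptr-2, which acts in germline cytokinesis, at -1.22 ± 0.17), and grl-4 was at 1.55 and 1.79 for spo-11 and 1.55 and 1.80 for htp-3, against N2 and dsb-2 in turn.

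**Figure D4:**
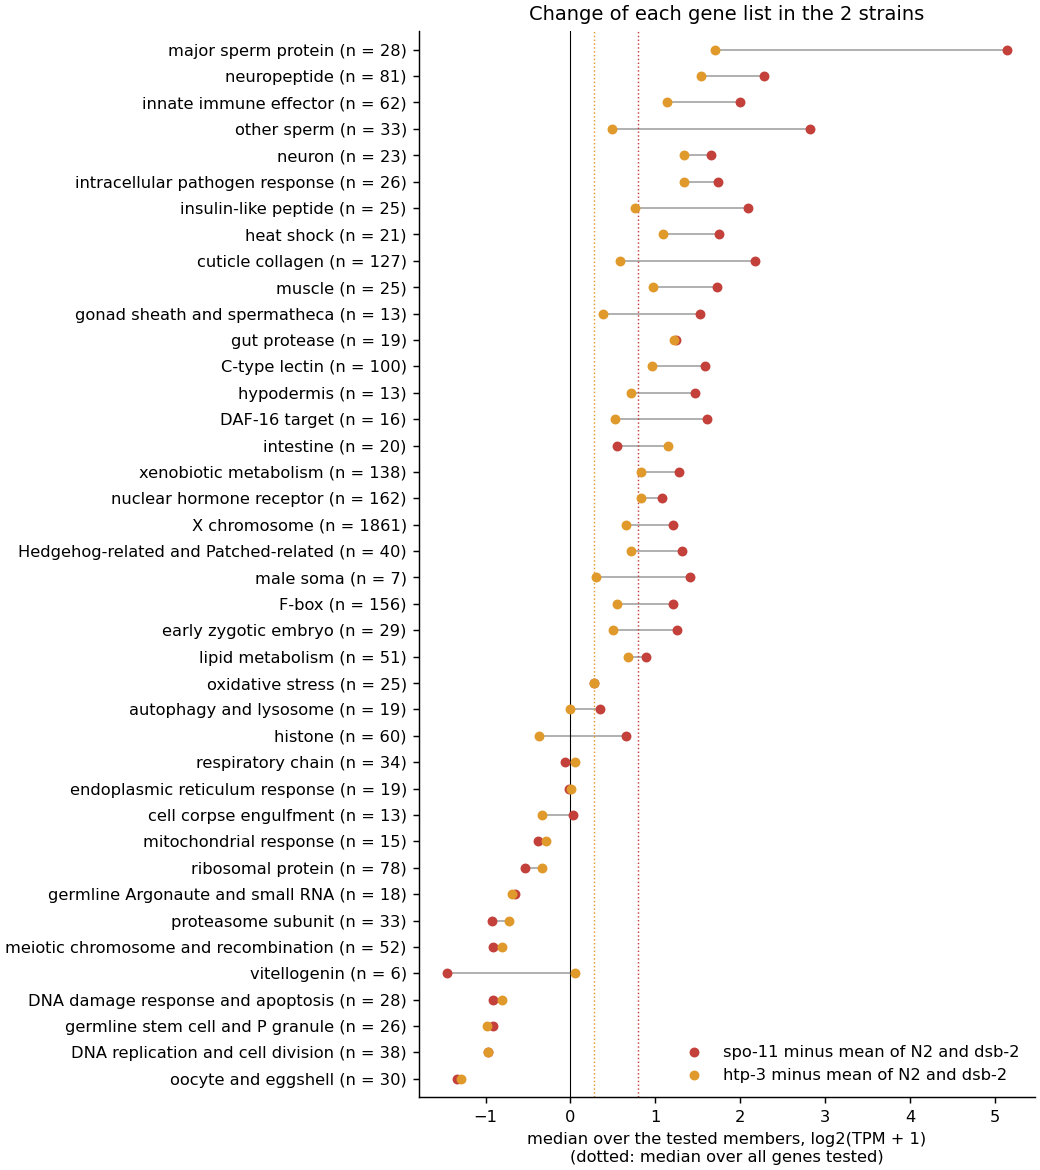
Median change of each gene list (y axis, with its number of tested genes) in spo-11 and in htp-3 against the mean of N2 and dsb-2, in log2(TPM + 1); dotted lines give the medians over all genes tested, 0.80 for spo-11 and 0.28 for htp-3. The germline, replication, DNA damage and proteasome lists lie at the bottom with their points close together. The vitellogenin list is placed between them by its median but has points far apart, at -1.45 and 0.05. The major sperm proteins show the widest gap, 5.14 in spo-11 against 1.70 in htp-3.

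Sperm transcripts were higher in the pooled comparison, and spo-11 stood far above htp-3. Of 28 major sperm protein genes, 22 were shared as higher and 0 as lower, with a median of 3.27 (5.14 in spo-11, 1.70 in htp-3; 2.74 under median-of-ratios scaling, with 10 shared higher and 0 lower), and 26 were called above htp-3 in spo-11. That count was not steady: it was 10 under median-of-ratios scaling, 1 without N2 replicate 1 or without htp-3 replicate 3, 5 without htp-3 replicate 1 and 11 without N2 replicate 2. The list summed to between 54.2 and 337 in N2, between 49.2 and 205 in dsb-2, between 212 and 739 in htp-3 and between 3794 and 7022 in spo-11 (TPM), and the htp-3 sums overlapped those of N2. Major sperm protein genes are near-identical and their reads may be shared. The gene msp-56 was at 156, 165 and 277 TPM in spo-11, at 11.7, 5.32 and 19.1 TPM in htp-3 and at 0.835 to 6.55 TPM (median 2.73) in N2 and dsb-2. Of 33 other sperm genes (15 high-side only), 11 were shared as higher and 1, spe-39, as lower, with a median of 1.60 (2.82 in spo-11, 0.49 in htp-3; 1.29 under median-of-ratios scaling, with 7 shared higher and 3 lower). This was 33.3% of the list, close to the 34.0% of all genes. In 31 members spo-11 was called higher than htp-3, against 38.6% of all genes, a direction the filter favours in members kept through spo-11 alone. The sperm-supplied factor spe-11 was at 53.4, 37.8 and 83.9 TPM in spo-11, at 2.36, 0.977 and 3.44 TPM in htp-3 and at 0.0872 to 0.732 TPM (median 0.331) in N2 and dsb-2. The other sperm list summed to between 107 and 178 in N2, between 133 and 174 in dsb-2, between 146 and 285 in htp-3 and between 1589.5 and 3030.2 in spo-11 (TPM). The part of sperm transcripts in the other results was not tested.

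The pooled calls of some sperm-fate and sperm small RNA genes rested on spo-11. The gene fog-3, which sets sperm fate, was at 30.9, 34.6 and 41.1 TPM in spo-11, at 0.851, 0.286 and 0.711 TPM in htp-3 and at 0.540 to 1.01 TPM (median 0.859) in N2 and dsb-2, with a pooled difference of 2.07 ± 0.14 (SE; adjusted p = 1.13e-08) and htp-3 contrasts of -0.12 and -0.24. The difference between spo-11 and htp-3 was 4.51 (adjusted p = 7.38e-10). The spermatogenesis Argonaute genes alg-3 and alg-4 were at 12.7, 12.9 and 26.5 TPM in spo-11, at 0.762, 0.182 and 0.818 TPM in htp-3, and at 12.5, 13.5 and 27.8 TPM in spo-11, at 1.19, 0.280 and 1.19 TPM in htp-3, against at most 0.286 and 0.428 TPM over the N2 and dsb-2 libraries. They differed between spo-11 and htp-3 by 3.48 (adjusted p = 5.35e-08) and 3.28 (adjusted p = 1.29e-07).

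Yolk and somatic gonad genes did not form a shared group of 1 direction, while the shared early zygotic embryo genes were all higher on the TPM scale. Of 6 vitellogenin genes, 1 was shared as lower and 0 as higher, and the median was -0.83 (-1.45 in spo-11, 0.05 in htp-3; -1.46 under median-of-ratios scaling, with 0 shared higher and 1 lower). The gene vit-3 was at 176, 456 and 208 TPM in spo-11, at 875, 1287 and 808 TPM in htp-3 and at 1448 to 2136 TPM (median 1604) in N2 and dsb-2. The difference was -1.73 ± 0.19 (SE; adjusted p = 8.57e-07). The genes vit-1 and vit-4 were lower in spo-11 than in htp-3, by -2.99 (adjusted p = 5.52e-07) and -2.78 (adjusted p = 1.26e-06), vit-4 being at 125, 328 and 130.3 TPM in spo-11, at 1251, 1567 and 895 TPM in htp-3 and at 1167 to 2098 TPM (median 1546) in N2 and dsb-2. Vitellogenin genes are alike in sequence and may share reads. Of 13 gonad sheath and spermatheca genes, 6 were shared as higher and 2 as lower, with a median of 1.25 (1.52 in spo-11, 0.39 in htp-3; 0.74 under median-of-ratios scaling, with 5 shared higher and 3 lower). The 2 lower genes, inx-14 (-0.89 ± 0.17) and inx-22 (-1.09 ± 0.16), encode innexins on the germline side of the gap junctions with the sheath. The spermathecal gene fos-1 was at 20.7, 18.1 and 22.7 TPM in spo-11, at 15.7, 13.4 and 14.3 TPM in htp-3 and at 2.85 to 7.47 TPM (median 4.48) in N2 and dsb-2 (1.70 ± 0.14). Of 29 early zygotic embryo genes (16 high-side only), 18 were shared as higher and 0 as lower, with a median of 0.91 (1.26 in spo-11, 0.50 in htp-3; 0.62 under median-of-ratios scaling, with 9 shared higher and 2 lower). The pharynx factor gene pha-4, also used in adult tissue, was at 5.46, 4.66 and 5.63 TPM in spo-11, at 3.36, 3.92 and 2.84 TPM in htp-3 and at 0.522 to 1.33 TPM (median 0.860) in N2 and dsb-2. The zinc-finger gene lsy-27 had a listed value of 0 in each of the 3 spo-11 libraries and was at 9.51, 15.7 and 12.7 TPM in htp-3 and at 15.7 to 20.4 TPM (median 16.3) in N2 and dsb-2. Of 21 male soma genes, 7 were tested (2 high-side only), and 3 were shared as higher and 0 as lower, also under median-of-ratios scaling. Their median was 0.93 (1.40 in spo-11, 0.31 in htp-3), or 0.58 under that scaling, and in all 7 spo-11 was called above htp-3. The list summed to between 11.7 and 15.6 in N2, 11.1 and 16.9 in dsb-2, 16.8 and 22.3 in htp-3 and 41.5 and 52.8 in spo-11 (TPM).

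Stress and quality control lists were mixed. Of 21 heat shock genes, 9 were shared as higher and 4 as lower, with a median of 1.51 (1.75 in spo-11, 1.10 in htp-3; 0.93 under median-of-ratios scaling, with 4 shared higher and 7 lower). The 9 higher ones were small heat shock genes, among them hsp-17 at 81.7, 83.3 and 70.6 TPM in spo-11, at 89.8, 78.2 and 89.6 TPM in htp-3 and at 18.2 to 34.6 TPM (median 23.2) in N2 and dsb-2 (1.74 ± 0.14). The inducible pair hsp-16.2 and hsp-16.41 rose by 3.01 ± 0.54 and 3.20 ± 0.60, and these neighbours may share reads. The 4 lower ones included the constitutive chaperones daf-21, now named hsp-90, at 1011, 1136 and 1024 TPM in spo-11, at 1266, 1965 and 1404 TPM in htp-3 and at 2416 to 3175 TPM (median 2903) in N2 and dsb-2 (-1.16 ± 0.10), and hsp-1 (-0.97 ± 0.11). Of 19 autophagy and lysosome genes, 5 were shared as higher and 3 as lower, with a median of 0.17 (0.35 in spo-11, -0.005 in htp-3; -0.43 under median-of-ratios scaling, with 3 shared higher and 8 lower), a sign that depended on the scaling. The TFEB homologue hlh-30 was at 46.4, 38.7 and 53.5 TPM in spo-11, at 22.7, 24.8 and 23.8 TPM in htp-3 and at 6.27 to 12.7 TPM (median 9.50) in N2 and dsb-2 (1.72 ± 0.15), and the cargo receptor gene sqst-1 rose by 1.98 ± 0.14. Of 15 mitochondrial response genes 1 (dve-1) was shared as higher and 3 (tomm-20, phb-1 and phb-2) as lower, or 1 and 8 under median-of-ratios scaling. Of 19 endoplasmic reticulum response genes 3 were shared as higher and 2 as lower (0 and 8 under that scaling), and of 25 oxidative stress genes 6 and 2 (1 and 8). The protein disulphide isomerase genes pdi-2, on X, and pdi-1, on III, moved in opposite directions on the TPM scale, at 0.68 ± 0.09 and -0.73 ± 0.11, and pdi-2 was at 0.05 under median-of-ratios scaling. Of 13 cell corpse engulfment genes 1 was shared as higher and 2 as lower (0 and 8 under median-of-ratios scaling), the last being psr-1 and ced-2 (-1.03 ± 0.11), and of 156 F-box genes (59 high-side only) 86 and 7, or 63 and 19 under median-of-ratios scaling. The F-box gene fbxa-59 was at 97.4, 84.6 and 78.9 TPM in spo-11, at 11.9, 14.3 and 15.7 TPM in htp-3 and at 2.30 to 3.65 TPM (median 2.62) in N2 and dsb-2.

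The shared genes were spread unevenly over the chromosomes. On X, 1007 of 1861 genes tested were shared as higher (54.1%) and 30 as lower (1.61%), and 359 of the 1861 were high-side only. On V, 42.2% were shared as higher and 10.4% as lower. On I and III, 22.7% and 24.0% were shared as higher and 18.4% and 18.1% as lower. Under median-of-ratios scaling X held 605 shared higher and 126 shared lower genes of 1861 tested. Chromosome V held 756 and 616 of 2618, and chromosome I 316 and 950 of 2264. The median pooled difference was close on X and V, at 0.946 and 0.903, or 0.523 and 0.522 under median-of-ratios scaling. Among the genes tested, a rise of the median gene was thus not particular to X. Both medians include genes that passed the filter through spo-11 and htp-3 alone, and their number on V is not given here. The share of shared falls was lower on X than on V. Among the X genes with the smallest pooled p, K06G5.1 was at 486, 639 and 516 TPM in spo-11, at 575, 457 and 365 TPM in htp-3 and at 71.4 to 105 TPM (median 92.6) in N2 and dsb-2 with a difference of 2.43 ± 0.13 (SE; adjusted p = 2.68e-09). Genes of the X chromosome summed to between 49272 and 54452 in N2, between 49618 and 54835 in dsb-2, between 89684 and 112334 in htp-3 and between 98763 and 107326 in spo-11 (TPM), with no overlap between the 2 sides. Genes of the other lists can also lie on X, so the lists and the chromosome are not separate observations.

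Of the 12 mitochondrial genes tested, 11 were shared as higher, with a median of 1.45, or 2 of 12 and a median of 0.82 under median-of-ratios scaling. The ATP synthase gene atp-6 had mean values of 2544 TPM in N2, 1702 TPM in dsb-2, 5793 TPM in spo-11 and 4417 TPM in htp-3, a difference of 1.26 ± 0.13 (SE; adjusted p = 4.85e-07). The remaining gene, nduo-3, had a pooled difference of 1.46 ± 0.33 (SE; adjusted p = 0.00075) and was not called in every strain contrast.

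Shared genes also lay next to each other. Runs were counted over neighbouring listed genes, and an untested gene ended a run. The longest runs shared as higher held 10 genes. They included the mitochondrial genes from nduo-6 to ctc-2 and nuclear receptor and P450 genes from nhr-56 to cyp-33C5 on V (2219004 to 2247015). Another was the stretch from srr-6 to K11D12.9 on V (5012994 to 5046203), which includes cpt-4. On X, runs of 9 reached from bgal-2 to F41B4.2 (6784411 to 6835266), with the autophagy gene atg-2 and the peroxisomal gene dhs-28, and from tni-1 to hum-4 (11375887 to 11433524), with the troponin gene tni-1. The longest run of shared lower genes held 7, from icp-1 to mcm-4 on chromosome I (2304512 to 2321847), with pooled differences of -1.14 to -0.73. Neighbouring genes can share an operon or overlap, and the files do not separate reads of antisense or overlapping genes.

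Some genes changed by the same amount in spo-11 and htp-3. The shared higher genes with the smallest difference between the strains relative to their change were F09E5.11, ule-1, ugt-8, C09E8.1 and C51E3.10. The gene ule-1, expressed in the uterine lumen, was at 2034, 1158 and 807 TPM in spo-11, at 1606, 1042 and 1132 TPM in htp-3 and at 252 to 522 TPM (median 417) in N2 and dsb-2, with strain contrasts of 1.78 and 1.61 for spo-11 and 1.78 and 1.61 for htp-3, against N2 and dsb-2 in turn. The glucuronosyltransferase gene ugt-8 was at 5.18, 7.90 and 5.33 TPM in spo-11, at 3.30, 8.36 and 7.68 TPM in htp-3 and at 0.134 to 1.63 TPM (median 0.476) in N2 and dsb-2 (2.11 ± 0.24). The corresponding lower genes were nhr-274, crn-1, F32D8.5, ZK632.5 and coh-3. The FEN1-type nuclease gene crn-1 was at 82.3, 85.8 and 78.7 TPM in spo-11, at 61.7, 108 and 83.0 TPM in htp-3 and at 135 to 182 TPM (median 159) in N2 and dsb-2 (-0.93 ± 0.13). These genes were picked for likeness, so their likeness is not a finding.

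Some genes moved in opposite directions in the 2 strains, which a pooled mean does not show. In 14 genes (0.103%) spo-11 was called above and htp-3 below both N2 and dsb-2, and in 16 (0.117%) the reverse held. The first count was 9 without N2 replicate 1, dsb-2 replicate 3 or spo-11 replicate 3 and 7 without htp-3 replicate 1, and the second was 9 without spo-11 replicate 3. The major sperm protein gene msp-40 was at 294, 228 and 514 TPM in spo-11, at 0.436, 0.153 and 0.835 TPM in htp-3 and at 1.82 to 19.8 TPM (median 6.06) in N2 and dsb-2, and htp-3 lay below every N2 and dsb-2 library and spo-11 above. The gene fog-1, which like fog-3 sets sperm fate, was at 46.2, 57.3 and 56.3 TPM in spo-11, at 6.97, 11.8 and 8.84 TPM in htp-3 and at 14.8 to 25.0 TPM (median 16.2) in N2 and dsb-2. The gene Y49E10.16 was at 78.5, 83.3 and 65.5 TPM in spo-11, at 2.49, 1.97 and 2.51 TPM in htp-3 and at 29.4 to 41.2 TPM (median 31.0) in N2 and dsb-2. In the other direction, the aspartic protease gene asp-10 was at 24.8, 34.5 and 26.3 TPM in spo-11, at 675, 279 and 257 TPM in htp-3 and at 46.9 to 90.2 TPM (median 69.5) in N2 and dsb-2. The lectin gene clec-97 was at 28.7, 23.9 and 16.7 TPM in spo-11, at 215, 133 and 181 TPM in htp-3 and at 44.6 to 95.7 TPM (median 57.7) in N2 and dsb-2, and its pooled difference of 0.02 ± 0.17 (SE; adjusted p = 0.91). The fatty acid-binding protein gene lbp-3 was at 13.2, 11.6 and 11.6 TPM in spo-11, at 70.5, 80.3 and 81.4 TPM in htp-3 and at 14.7 to 37.1 TPM (median 20.2) in N2 and dsb-2. In each of the 3 genes of that direction every htp-3 library lay above every N2 and dsb-2 library and every spo-11 library below.

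**Figure D5:**
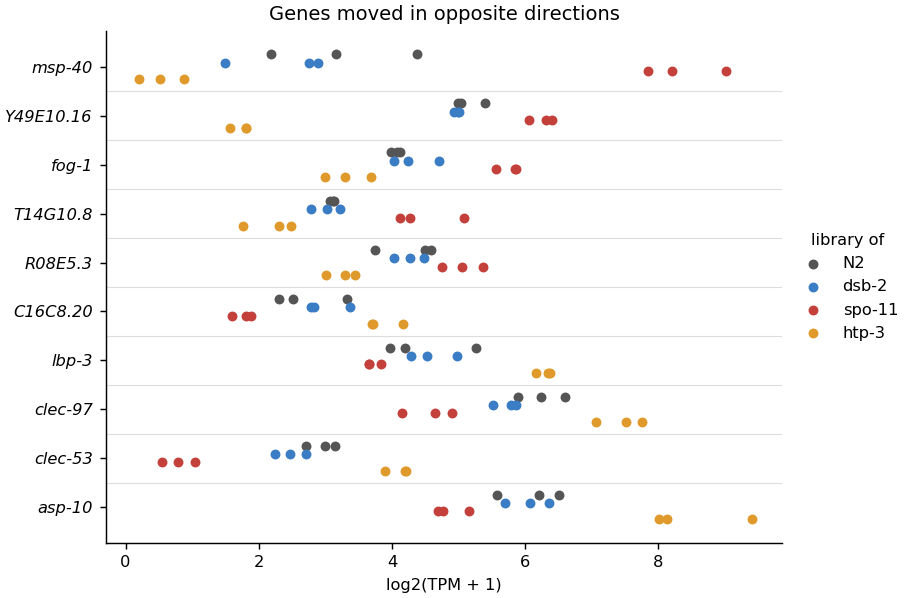
Values of the 5 genes with the largest spo-11 minus htp-3 difference in each direction among the genes the strains moved oppositely, with log2(TPM + 1) on the x axis and 1 point per library. For each gene the N2 and dsb-2 points lie between those of spo-11 and htp-3, which the choice of these genes favours.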

How the data were processed

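The authors deposited 1 file per library with TPM and RPKM values per gene, as the file headers name them; they rest on WBcel235, the build that the submitters' processing notes name. The authors scaled RPKM to mapped reads and exon length, and TPM so that the listed genes of a library have a fixed sum. The sources used here give no aligner, counter or strand setting. Read counts rebuilt from RPKM were whole within 0.05 for 18041 of 18042 genes and gave 32422219 to 42527086 mapped reads per library. Genes at 1 TPM or more in 3 libraries were tested on log2(TPM + 1) with limma 3.58.1 in R 4.3.3, 1 mean per strain, with Benjamini-Hochberg adjustment over all 13650 genes and a threshold of 0.05. The procedure was tested on simulated data. The 12 libraries were treated as separate samples, with no repeat found among them, and p-values measure the spread between libraries of a strain. Members and gene lists were chosen with earlier results of these data known. Named by rule were the mutated genes, the 12 highest and 12 lowest shared genes with sides apart and a mean of at least 5 TPM on the higher side, from each list the 3 genes of smallest pooled p, the 5 opposed genes each way with the largest strain difference and the 5 shared genes each way most alike in the strains. Gene names follow the files, with 99.2% of the identifiers found in the annotation. Promoter motifs were not analysed here. Scaling, filter, pseudocount, unit, threshold, strains used, replicate block, unit of replication and each library left out were varied.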

Additional observations from a re-analysis of the deposited data

Results flagged for a closer look

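Effects of the 2 strains against the same N2 and dsb-2 libraries differed in direction for the 10 genes below, and the difference between spo-11 and htp-3 was itself tested in limma over all 13650 genes. On the log2(TPM + 1) scale spo-11 stood above htp-3 by 7.82 in msp-40, 4.53 in Y49E10.16, 2.43 in fog-1, 2.31 in T14G10.8 and 1.81 in R08E5.3, now named rips-1. The spo-11 minus htp-3 difference was -3.65 in asp-10, -3.31 in clec-53, -2.88 in clec-97, -2.58 in lbp-3 and -2.10 in C16C8.20. All 10 were chosen for the size of this difference among genes called in opposite directions, so the values describe them. Reads of msp-40 may be shared with other major sperm protein genes.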

How the results depend on the processing

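Under median-of-ratios scaling 2994 genes were shared as higher and 4104 as lower, 3214 and 4127 had sides that did not overlap, and 52 opposed genes were higher in htp-3. The pooled values of spo-11, dsb-2, fog-1, T14G10.8, clec-97 and lbp-3 were then -0.51, -0.50, -0.26, -0.29, -0.59 and -0.12, and clec-97 was at -0.075 under upper-quartile scaling. C16C8.20 was at 0.034 with RPKM. With a pseudocount of 5, clec-53 was at 0.057 and C16C8.20 at 0.053. A minimum of 5 TPM left 4885 pooled higher genes and 3990 between spo-11 and htp-3, since fewer genes were tested. A fold change of at least 2 left 5044 pooled higher and 606 pooled lower genes, 2116 and 145 shared, 3281 between spo-11 and htp-3, and 2 and 3 opposed. With spo-11 as the only strain of its side 7319 genes were shared as higher and 7384 and 3165 had sides apart; the pooled values became 1.199 in Y49E10.16, 0.79 in R08E5.3, -1.20 in asp-10, -1.42 in clec-97 and -0.82 in lbp-3. With htp-3 only they became -0.059 in dsb-2, -2.27 in msp-40, -0.87 in fog-1, -0.87 in T14G10.8, 1.39 in clec-53, 1.01 in C16C8.20 and -0.18 in fog-3. With N2 as the only control dsb-2 was at -0.70, clec-97 at -0.24 and C16C8.20 at 0.10, and with dsb-2 only, spo-11 was at -0.0028. Strain means as samples gave 1520 and 970 pooled genes, with 2 residual degrees of freedom. Named genes then no longer called in limma included htp-3 (adjusted p = 0.0547), rpl-11.1 (0.0563), lys-7 (0.0515), vit-3 (0.1035), msp-56 (0.0992) and fog-3 (0.285). The p-values given above for single genes do not take the strain as the unit. Where no reason is named, the cause was not tested. With 1 library left out, pooled counts ran from 6317 to 7866 and 3414 to 3931, shared counts from 3726 to 4772 and 1325 to 2178, and counts with sides apart from 4516 to 5846 and 1928 to 2590. The count between spo-11 and htp-3 ran from 3845 to 6380, that between dsb-2 and N2 from 23 to 38, and opposed genes from 7 to 15 and 9 to 21. The pooled values then ran from -0.067 to 0.12 in clec-97, from -0.14 to 0.12 in C16C8.20 and from -0.0055 to 0.23 in spo-11. Same-numbered libraries did not deviate together in every pair over the 4 strains (r from -0.39 to 0.44), and no label says that a number marks a shared batch, so the pooled comparison was not paired. With the replicate number as a block 7838 and 3800 genes were pooled calls and 4729 and 1937 were shared. Between htp-3 and spo-11 all 3 same-numbered pairs had r over 0.1 (0.12, 0.44 and 0.23), and the block gave 6580 genes in place of 6370. limma-voom on rebuilt reads, added after the data were seen, gave 7883 and 3553 pooled and 4754 and 1750 shared. Genes near 1 TPM rest on few reads, and a fold change on this scale understates their change.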
